A study of Mus musculus with 8 samples.

Results

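The cyclin-dependent kinase (CDK) inhibitors of the INK4 and CIP/KIP families were examined in mouse embryonic fibroblasts that lack Cbx2. The genes were taken from the authors' deposited table by their symbols, Cdkn2a, Cdkn2b, Cdkn2c and Cdkn2d for INK4 and Cdkn1a, Cdkn1b and Cdkn1c for CIP/KIP, and all 7 were found among its 17441 genes. Primary cells came from embryos at embryonic day 18 and were collected at passage 2. The wild-type group was described as littermates, and the knockout group carried a targeted deletion of Cbx2 (Cbx2-/-). No drug or other agent was given to either group. RNA was sequenced from 2 libraries per genotype, each made from 200000 cells and read to about 4.62 Gb. Accessible chromatin, profiled in 2 further libraries per genotype, is not analysed here. The labels do not tie libraries to single embryos, so the p-values measure the spread between these samples, which may be technical.

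CDK inhibitors halt cells before DNA replication. INK4 proteins bind CDK4 and CDK6 and keep them from pairing with D-type cyclins, so that the retinoblastoma protein stays active and E2F factors stay silent. CIP/KIP proteins bind assembled cyclin and CDK complexes, above all those of CDK2. Cdkn2a gives rise to a pair of unrelated proteins from alternative first exons, p16Ink4a and p19Arf, and Arf blocks Mdm2, the ubiquitin ligase that removes p53. In fibroblasts in culture the Ink4-Arf locus is a classic target of polycomb repression, and its activation accompanies senescence. Cbx2 is one of the chromodomain proteins that bring polycomb repressive complex 1 to methylated histones.

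The RefSeq promoter table (build GRCm38.p6) held 9 start sites for 6 of the genes, and the 250 bases upstream of 5 of them are shown because they belong to the Ink4-Arf locus and to Cdkn1a, where the changes below lie. All are printed 5′ to 3′ on the strand of the gene. Capitals mark the GC box GGGCGG and the E2F string TTCCCGC, searched on both strands. The start of Cdkn2a that lies farther upstream is that of Arf, and the start 12427 bases downstream of it is that of p16Ink4a.
Cdkn2a, upstream start (chr4:89294620-89294869, minus strand): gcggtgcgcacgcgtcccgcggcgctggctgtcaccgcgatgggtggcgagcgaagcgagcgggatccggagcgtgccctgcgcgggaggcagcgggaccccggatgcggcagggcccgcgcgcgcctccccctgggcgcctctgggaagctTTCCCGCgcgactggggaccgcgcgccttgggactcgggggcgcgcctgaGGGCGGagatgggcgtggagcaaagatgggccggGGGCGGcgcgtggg
Cdkn2a, downstream start (chr4:89282193-89282442, minus strand): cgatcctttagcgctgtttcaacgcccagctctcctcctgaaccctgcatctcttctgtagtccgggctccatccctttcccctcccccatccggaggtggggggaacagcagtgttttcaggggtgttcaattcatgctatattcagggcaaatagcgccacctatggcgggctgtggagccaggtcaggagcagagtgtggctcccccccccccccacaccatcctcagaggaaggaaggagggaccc
Cdkn2b (chr4:89311033-89311282, minus strand): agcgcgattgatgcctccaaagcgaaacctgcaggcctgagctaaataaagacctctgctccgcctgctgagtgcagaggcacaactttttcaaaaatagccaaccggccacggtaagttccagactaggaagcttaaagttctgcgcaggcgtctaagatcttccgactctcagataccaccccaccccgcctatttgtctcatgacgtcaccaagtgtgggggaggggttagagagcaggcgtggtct
Cdkn1a, upstream start (chr17:29090729-29090978, plus strand): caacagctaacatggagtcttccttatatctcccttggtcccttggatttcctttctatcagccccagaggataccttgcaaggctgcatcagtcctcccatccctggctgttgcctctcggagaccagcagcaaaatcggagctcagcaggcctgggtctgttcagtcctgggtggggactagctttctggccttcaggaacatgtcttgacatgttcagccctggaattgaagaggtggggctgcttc
Cdkn1a, downstream start (chr17:29093519-29093768, plus strand): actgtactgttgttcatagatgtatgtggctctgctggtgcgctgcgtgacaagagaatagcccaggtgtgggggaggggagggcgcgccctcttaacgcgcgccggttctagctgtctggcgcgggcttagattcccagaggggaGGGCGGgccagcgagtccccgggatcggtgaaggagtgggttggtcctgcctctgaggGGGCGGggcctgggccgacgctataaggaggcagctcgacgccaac
The starts of Cdkn2a differed in base composition. The upstream window held 40 CpG dinucleotides and 78.4% G and C, and 98.7% of all 32851 windows of this length had fewer CpG. The downstream window held 7 CpG, close to the median of 6 over all windows. Cdkn2b held 12. The upstream start of Cdkn1a held 2 CpG, with fewer in 18.8% of all windows, and no GC box, and its downstream start held 19 CpG and 2 GC boxes. GGGCGG was present in 5 of the 9 windows of these genes, against 32.7% of all windows, and TTCCCGC in the upstream window of Cdkn2a and in 1 window of Cdkn2c, against 3.82% of all windows. The other E2F strings searched, TTGGCGC (in 1.97% of all windows) and TTCGCGC (1.28%), were in none of the 9 windows. The same held for the E-box CACGTG (6.02% of all windows) and for TATAAA (12.4%). These are matches of letters and not binding sites.

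Expression is given as a normalised read signal. The authors deposited a single value for each genotype, so the values carry no SD. They sum to 19428299 over all genes in wild type and to 18910077 in knockout. The log2 ratio of a gene's values equals its shrunken fold change. The values of the genotypes can therefore lie closer together than the measured means, above all for genes with few reads. All values, log2 fold changes and DESeq2 p-values of single genes below are from the authors' deposited table. Standard errors (SE) and 95% intervals of a log2 fold change were derived from it and the deposited p, and share its shrinkage toward 0. A gene was counted as changed where the authors' DESeq2 adjusted p was under 0.05. The authors' deposited table lists the targeted gene Cbx2 at 346.8 for wild type and at 29.0 for knockout. The libraries held bulk RNA, in which fewer cells of a type and less RNA per cell cannot be told apart.

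Of the 7 inhibitor genes 2 rose, Cdkn2a and Cdkn1a, and none fell. Over all genes 7.78% passed the same threshold, 3.48% as higher and 4.30% as lower in knockout. An unadjusted DESeq2 p under 0.05 was reached by 3 of the inhibitors, and by 14.6% of all genes. At a change of 2-fold or more, which 1.69% of all genes passed, there was none among the inhibitors. Their median log2 fold change was 0.08, beside 0.0036 over all genes, and 5 genes had a positive and 2 a negative value.

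**Figure D1:**
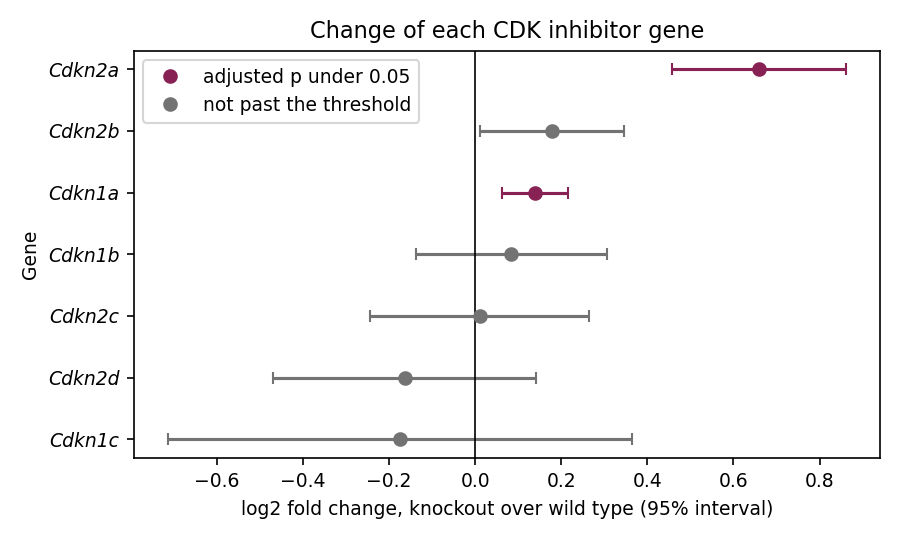
log2 fold change of knockout over wild type (x axis) for each CDK inhibitor gene (y axis), with bars for the 95% interval implied by the deposited p. Cdkn2a lies at 0.66 with an interval well above 0, Cdkn1a at 0.14 with a narrow interval and Cdkn2b at 0.18 just above 0, and the other 4 have intervals that include 0.

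Cdkn2a, the gene of p16Ink4a and p19Arf, showed the largest change of the inhibitors. The authors' deposited table gives it 573.0 for wild type and 904.5 for knockout. Its fold change was 1.58, with a log2 fold change of 0.66 (SE 0.10, 95% interval 0.46 to 0.86) and a DESeq2 adjusted p of 1.04e-08. By its mean value over both genotypes the gene stood above 71.0% of all genes. Of 1531 other genes with a mean between 80% and 125% of its own, 23 had a larger absolute log2 fold change. Reads of the gene (12578, chromosome 4 from 89274473 to 89294619) were counted as 1 value, so the shares of p16Ink4a and Arf transcripts cannot be told apart.

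Cdkn2b encodes p15Ink4b, the INK4 protein best known as a target of TGF-beta signalling. It lies on the same strand as Cdkn2a, separated from it by 11669 bases (gene 12579, chromosome 4 from 89306289 to 89311032). The authors' deposited table gives 1021.7 for wild type and 1156.5 for knockout, a log2 fold change of 0.18 (SE 0.08). The unadjusted p was 0.0352 and the DESeq2 adjusted p 0.269, so it did not pass. Its 95% interval, 0.012 to 0.35, lay below that of Cdkn2a, and the difference between the pair was not tested.

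Neither of the INK4 genes outside the locus passed the threshold. Cdkn2c encodes p18Ink4c (gene 12580, chromosome 4 from 109660876 to 109666756) and had a wild-type value of 438.9 and a knockout value of 442.1 in the authors' deposited table. Its 95% interval ran from -0.24 to 0.27 on the log2 scale (DESeq2 adjusted p 0.997). Cdkn2d encodes p19Ink4d, which is distinct from Arf (gene 12581, chromosome 9 from 21288459 to 21291421). Its values were 306.3 and 273.5 in the authors' deposited table, with a log2 fold change of -0.16, an interval of -0.47 to 0.14 and a DESeq2 adjusted p of 0.879. The intervals leave room for changes of the size seen for Cdkn1a in both genes.

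Cdkn1a, which encodes p21, the inhibitor that p53 induces after DNA damage, rose slightly. It lies on chromosome 17 from 29090979 to 29100722 (gene 12575). The authors' deposited table gives 10019 for wild type and 11034 for knockout, a difference of 10.1%. The log2 fold change was 0.14 (SE 0.04, 95% interval 0.063 to 0.22) and the DESeq2 adjusted p 0.00654. Small changes pass more often at this level. Of the 149 genes with a mean between 80% and 125% of its own, itself included, 24.8% were called, and 29 had a larger absolute log2 fold change. With 10% added spread between libraries the call was lost (adjusted p 0.9996 after Benjamini-Hochberg adjustment of the widened DESeq2 test), and it was lost by Bonferroni adjustment too.

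Cdkn1b and Cdkn1c did not pass. Cdkn1b encodes p27, which accumulates in resting cells and is regulated mostly through protein breakdown (gene 12576, chromosome 6 from 134920401 to 134925525). Its values were 577.1 and 611.8 in the authors' deposited table, with a log2 fold change of 0.08, an interval of -0.14 to 0.31 and a DESeq2 adjusted p of 0.931. Cdkn1c encodes p57, an imprinted inhibitor expressed from the maternal chromosome (gene 12577, chromosome 7 from 143458339 to 143461059). It had the lowest values of the group, 85.6 for wild type and 75.9 for knockout in the authors' deposited table, with a log2 fold change of -0.17 (SE 0.27) and a DESeq2 adjusted p of 0.931.

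For Cdkn1c the reads of each library could be worked out, because its mean over all libraries is a sum of whole reads that each count a fixed amount per library. Only 1 set of whole reads matched the deposited digits. It had 86 and 81 reads for the wild-type libraries and 79 and 77 for the knockout ones. Divided by the size factors of the libraries, recovered in the same way (1.01 and 0.935 in wild type, 1.03 in both knockout libraries), these gave 85.4 and 86.6 for wild type and 76.4 and 74.7 for knockout. The genotypes did not overlap, with 86.0 ± 0.846 (SD, n = 2) in wild type and 75.5 ± 1.23 (SD, n = 2) in knockout. Counting alone, however, gives 86 reads an SD of 9.27, about the size of the difference of 10.4 between the means. With 2 libraries per genotype such a separation can also arise without a change, and its share over all genes was not worked out. Which of the replicates gave which value is not known, and the other inhibitor genes had too many reads for a single solution.

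**Figure D2:**
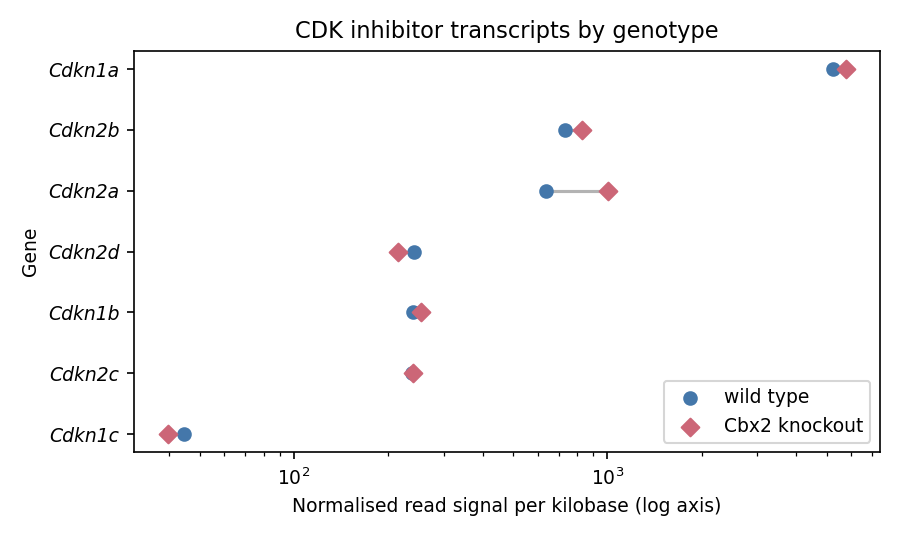
Normalised read signal per kilobase (x axis, log scale) of each CDK inhibitor gene (y axis) in wild type (circles) and Cbx2 knockout (diamonds), 1 deposited value per genotype. Cdkn1a stands far to the right in both genotypes, and Cdkn2a passes Cdkn2b in knockout.

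Levels were compared between genes after division by the gene length that the authors give. On this scale of signal per kilobase Cdkn1a was at 5229 in wild type and 5759 in knockout, and it made up 71.0% and 69.0% of the summed level of the 7 genes. Cdkn2b was at 733 and Cdkn2a at 638 in wild type, and the order of these neighbours was the reverse in knockout, with 1007 for Cdkn2a and 830 for Cdkn2b. Cdkn2d (241), Cdkn1b (239.96) and Cdkn2c (238) lay together in wild type, and Cdkn1c came last with 44.7. Without values per library the spread of these levels is not known, so no order among near neighbours was tested. The summed level of the 4 INK4 genes per kilobase was 1850.0 in wild type and 2292 in knockout, and that of the 3 CIP/KIP genes 5514 and 6053.

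None of the genes next to the inhibitors passed the threshold. For each inhibitor the nearest gene of the table on either side was taken, with any that overlapped it, which gave 13 genes besides the inhibitors. The authors' DESeq2 test called 0 of them (7.78% over all genes), and 2 had an unadjusted p under 0.05 (14.6% over all genes). Gm12610, Dmrta1, Rab44, 2810454H06Rik and Kcnq1 had mean values of only 1.74, 0.267, 0.987, 8.96 and 0.242, so changes in them could hardly be detected. Mtap, the methylthioadenosine phosphorylase gene on the far side of Cdkn2a, was listed at 2953 for wild type and 2904 for knockout in the authors' deposited table. The noncoding RNA gene Gm12610 starts 561 bases beyond the upstream end of Cdkn2a and spans Cdkn2b, and had 3 and 1 wild-type and 2 and 1 knockout reads. Whether the counting used strand is not given in the sources used here, so its few reads and those of Cdkn2b could be mixed. Faf1, beside Cdkn2c, went from 1156 to 1102, and Kri1, beside Cdkn2d, from 664 to 622, as the authors' deposited table lists them.

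Lockd, a noncoding RNA gene 3566 bases from Cdkn1b, had the largest log2 fold change, in size, among these neighbours. Its wild-type libraries held 77 and 71 reads and its knockout libraries 47 and 41, or 76.5 and 75.9 against 45.5 and 39.8 scaled reads, so the genotypes did not overlap. The log2 ratio of the mean scaled reads was -0.84, and the shrunken value in the authors' deposited table was -0.76. Its unadjusted DESeq2 p was 0.0163 and its adjusted p 0.155, so it did not pass. With 2 libraries per genotype a separation can arise without a change, and its share over all genes was not worked out. Trp53cor1, known as lincRNA-p21, is a p53-induced noncoding RNA gene 11852 bases from Cdkn1a. It had 25 and 16 wild-type and 22 and 15 knockout reads, and the genotypes overlapped. Slc22a18, next to Cdkn1c in its imprinted domain, had 10 and 29 wild-type and 24 and 18 knockout reads, so that the knockout libraries lay between the wild-type ones. Of 8 tested genes of that domain none was called in the authors' DESeq2 comparison, beside 7.78% of all genes. An unadjusted DESeq2 p under 0.05 was reached by 0 of them, beside 14.6% of all genes. In each genotype 3 of the 8 had values under 10, where changes could hardly be detected. Kcnq1ot1, the noncoding RNA whose paternal expression silences Cdkn1c, had a wild-type value of 344.8 and a knockout value of 363.5 in the authors' deposited table, and was named outside the rule.

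**Figure D3:**
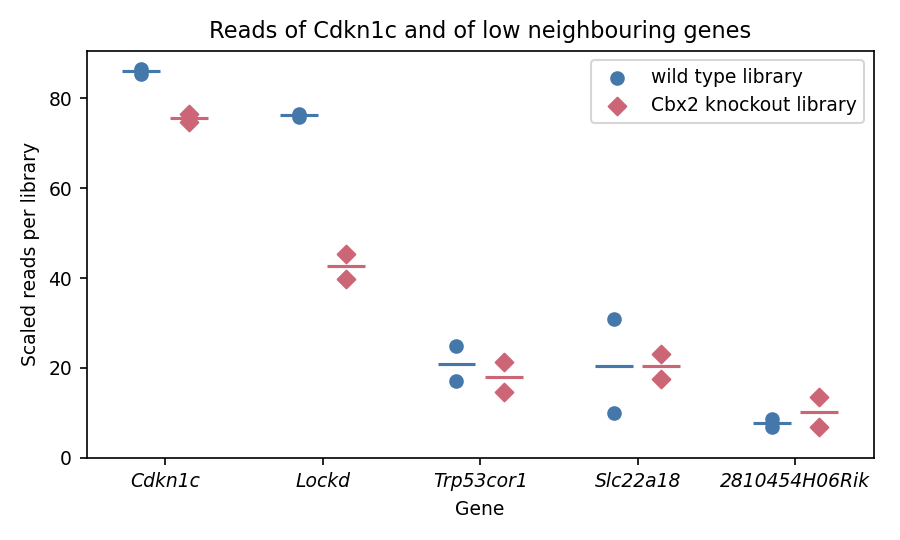
Scaled reads per library (y axis) of Cdkn1c and of 4 neighbouring genes with few reads (x axis), 2 libraries per genotype, with lines at the means. Wild type and knockout are separate for Cdkn1c and Lockd, which neither gene's DESeq2 adjusted p bears out, and overlap for the others.

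Known regulators of the inhibitor genes changed in both directions. Of 24 polycomb and H3K27 genes 2 rose and 1 fell, Cbx2 itself, with a median log2 fold change of -0.052, where 7.78% of all genes were called. Ring1, a ubiquitin ligase subunit of polycomb repressive complex 1, went from 173 to 293 (log2 fold change 0.76) and Jarid2, a partner of complex 2, from 429 to 576 (0.42) in the authors' deposited table. Bmi1, the complex 1 subunit whose loss is known to raise p16Ink4a and Arf, had values of 1101 and 1050.2 and did not pass (DESeq2 adjusted p 0.931). It was chosen after its values were seen. Among 27 further transcriptional regulators of the inhibitors 2 rose and 4 fell. An unadjusted DESeq2 p under 0.05 was reached by 12 of them, and by 14.6% of all genes. Both lists were chosen with earlier results of these data known, so their shares are no independent support. Twist2 (from 1921 to 1103) and Tbx3 (1181 to 851), which are known to hold back CDK inhibitor genes in some cells, fell, and so did Id3 (5290 to 4237) and Id4 (690.0 to 468.9), which block basic helix-loop-helix factors, in the authors' deposited table. The rises were those of Foxo1 (log2 fold change 0.55), which activates Cdkn1b, and Egr1 (0.19), both named outside the rule. With 10% added spread between libraries 1 polycomb gene was called as higher and 1 as lower, and among the further regulators none was called as higher and 1 as lower.

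Cdkn1a is itself a gene that p53 is known to induce, and of 21 other such genes listed, Mdm2 not among them, 5 were higher in knockout. Mdm2, both the target of Arf and a p53 target itself, was the 1 gene called among 12 of the Arf, Mdm2 and p53 axis, and went from 4393 to 4944 (log2 fold change 0.17, DESeq2 adjusted p 0.00732) in the authors' deposited table. Trp53 had values of 3390 and 3484 and did not pass. Of 21 p53 targets 5 rose and none fell, 18 had a positive log2 fold change, and the median was 0.11. Over all genes 3.48% were called higher and 4.30% lower, 8843 of 17441 had a positive value, and the median was 0.0036. Both lists were chosen with earlier results of these data known, so their direction is no independent support. The p53 targets that rose were Perp (from 163 to 388), Trp53inp1 (log2 fold change 0.43), Phlda3 (0.26), Pmaip1 (0.58) and Tnfrsf10b (0.22) in the authors' deposited table. The last of them was named outside the rule. With 10% added spread 1 of the p53 targets was called, and Mdm2 was not. Bax and Ccng1 were not called either in the deposited test, and like Trp53 they were named outside the rule.

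Genes of DNA replication and division lay mostly on the lower side in knockout. Of 14 cyclin and CDK genes 1 rose and 2 fell. Ccnd1, cyclin D1, the partner of CDK4 that INK4 proteins keep away, rose to 8332 from 7381, and Ccna2 (log2 fold change -0.25) and Ccne2 (-0.47), cyclins of S phase and of its entry, fell in the authors' deposited table. Cdk4 (5569 and 5630) and Cdk6 (490 and 537), the kinases bound by INK4 proteins, did not pass and were named outside the rule. Among 13 pocket protein and E2F genes Tfdp1, the dimer partner of E2F, fell (log2 fold change -0.18) and none rose. Of 19 E2F target and proliferation genes 18 had a negative value, with a median of -0.15, and 4 fell and none rose. They were Mcm6 (from 2563 to 1868), Mki67 (5727 to 4709), Rrm2 (4897 to 4014) and Mcm3 (1814 to 1543) in the authors' deposited table. Over all genes 3.48% were called higher and 4.30% lower, and 8598 of 17441 had a negative value. With 10% added spread none of the cyclin and CDK genes, the pocket protein and E2F genes or the E2F targets was called. These lists were chosen with earlier results of these data known, so their direction is no independent support.

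Genes that set the stability of p21, p27 and p57 proteins had no call among 14, and neither did 9 other genes whose products limit CDK activity. An unadjusted DESeq2 p under 0.05 was reached by 1 and 0 of them, against 14.6% of all genes. Over all genes 7.78% were called. Skp2, which marks p27 for breakdown, had values of 721.4 and 655.5, and Wee1, the kinase that inhibits CDK1, 564.3 and 493.4 in the authors' deposited table. Both were picked with their values in view.

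**Figure D4:**
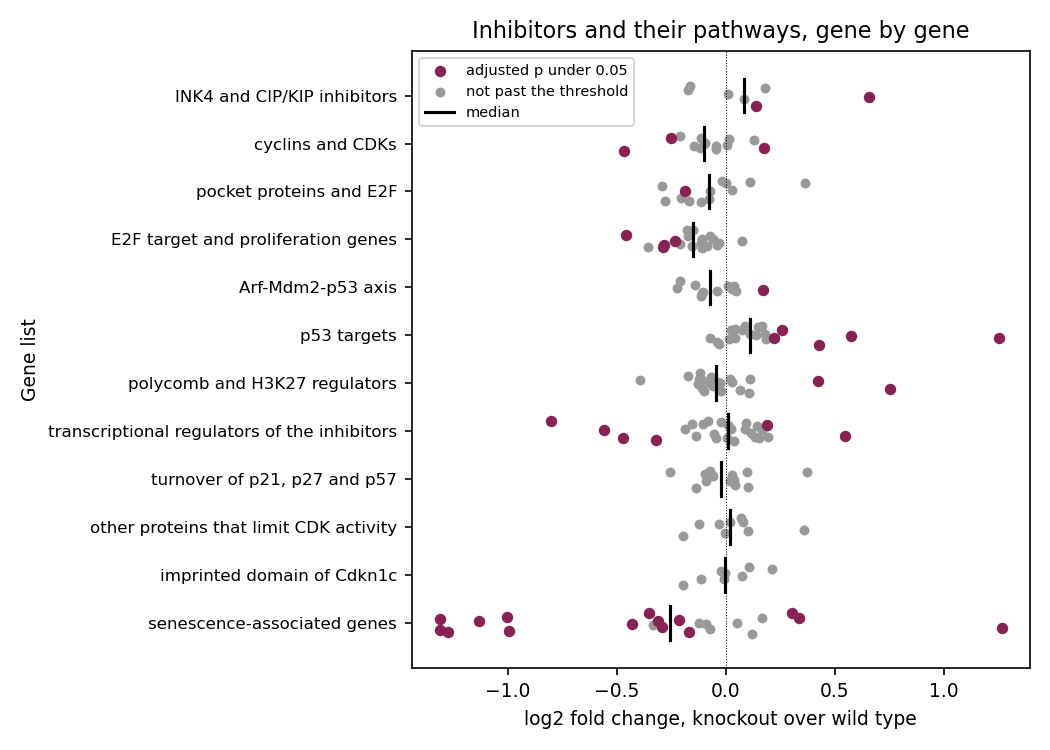
log2 fold change of knockout over wild type (x axis) of single genes in the inhibitor families and in 11 pathway lists (y axis), with called genes in purple and the median of each list as a bar. Cbx2 (-3.58) is not drawn and is left out of its list's median. p53 targets lie mostly right of 0, and E2F targets and senescence-associated genes mostly left.

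Among genes commonly linked to senescence more fell than rose. Of 22 such genes 3 rose and 12 fell, with a median log2 fold change of -0.25. The insulin-like growth factor binding protein gene Igfbp4 rose from 4605 to 11079, while Igfbp5 fell from 950.0 to 392, Igfbp7 from 12431 to 10147 and the chemokine gene Cxcl5 from 541 to 218 in the authors' deposited table. The inflammatory factor Il6 (152 to 76.5) and Cxcl1 (312 to 142) also fell, and Glb1, the gene of the lysosomal galactosidase used as a senescence stain, rose to 1061 from 859 in the authors' deposited table. Lmnb1, the lamin that is lost in senescent cells, had values of 1456 and 1369 and did not pass. The list thus holds genes expected to fall in senescent cells as well as genes expected to rise, so its counts have no single meaning. Hmgb1, also on the list, fell from 7641 to 6585 in the authors' deposited table. Il6, Cxcl1, Glb1, Lmnb1 and Hmgb1 were picked with their values in view. With 10% added spread 1 of the 22 was called as higher and 6 as lower. Of all 17441 genes 235 were called as higher and 190 as lower in that setting.

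The genes most like the called inhibitors in level and change were found by the nearest log2 fold change among genes with a mean between 80% and 125% of theirs. For Cdkn2a, out of 1531 candidates, they were Orai2 (log2 fold change 0.65) and Cdc42bpg (0.61) in the authors' deposited table. For Cdkn1a, out of 148, they were App (0.14) and Slc25a3 (0.14). With only a pair of groups, this likeness rests on 1 contrast.

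Markers of other cell types also differed between the genotypes. Of 12 macrophage markers 9 rose and none fell, where 3.48% of all genes were called higher and 4.30% lower. Their values in the authors' deposited table summed to 685 for wild type and 1996 for knockout. Much of that rise was Lyz2 (148 to 947), while Csf1r (245 to 257), named outside the rule, was not called. None of the macrophage markers was listed at 0, but Aif1 had 3 and 3 wild-type reads and 0 and 2 knockout reads. Ptprc had 3 and 3 against 21 and 16, and it and Aif1 were named outside the rule. The values deposited for Ptprc, 5.55 and 15.5, lay closer together than its mean scaled reads, 3.09 and 17.9. The sums here use deposited values. Of 13 fibroblast markers 1 rose and 10 fell, with sums of 769324 and 667073. Of 8 endothelial markers tested 2 rose and 1 fell (sums 712 and 1049), and of 8 epithelial markers 2 fell and none rose (sums 559 and 271.5). Values under 10 were held by 3 of the endothelial markers in each genotype. Among the epithelial markers 5 were under 10 in wild type and 6 in knockout. These sums thus rest on few genes, and whether the cells themselves were present was not tested. The part of these cells in the rises of Cdkn2a and Cdkn1a was not tested.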

How the data were processed

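RNA was measured in 2 wild-type and 2 Cbx2 knockout libraries, grouped by the genotype in their titles. The submitters' processing notes name mm10 and the tools DESeq2, RSEM, Bowtie2 and HISAT2. Versions, filters and strand settings: not given in the sources used here. For each gene the authors deposited 1 normalised read signal per genotype. Averaged over the genotypes it equals the mean scaled reads of the 4 libraries, and the deposited log2 fold change is shrunken toward 0 and equals the log2 ratio of the columns to within 9.13e-09. The p-value columns were deposited by the authors, and Benjamini-Hochberg adjustment of them over the 17441 genes gives the adjusted values to within 1.33e-06.

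Values per library were not in the table, so results rest on the authors' own DESeq2 test instead of a count test, the choice set out for such a table. SEs were implied by the deposited fold change and p under a normal distribution, on the shrunken scale. Reads per library were recovered for genes with a mean under 100 by search over whole numbers (Python 3.11.15, numpy 2.4.6, scipy 1.17.1, pandas 2.3.3). Steps were tested on simulated data. Counting SDs cover counting error only. Gene positions and promoters are from RefSeq GRCm38.p6, matched by gene identifier for 17396 genes.

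The genes and lists were chosen with earlier results of these data known. Named are the 7 inhibitors, Cbx2, up to 4 called genes per list with the smallest adjusted p, the nearest genes on either side of each inhibitor and 2 genes most alike to each called one. Some called genes are given only as counts, and genes named beyond this rule, with their values known, are marked where they appear. Tried were a threshold of 0.01, a 2-fold limit, genes in the upper part of the values (at least the median), Bonferroni adjustment, 10% added spread and centred fold changes.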

Additional observations from a re-analysis of the deposited data

How the results depend on the processing

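No paired analysis was possible because the authors' table holds 1 value per genotype. For the same reason leaving out each library, DESeq2 size factors against TMM and a filter on low counts were not run. Cdkn2a (log2 fold change 0.66) kept its call except under the 2-fold limit. Cdkn1a (0.14) kept its call at a threshold of 0.01, with centred fold changes and when genes below the median value were left out, and lost it under the 2-fold limit, Bonferroni adjustment and 10% added spread. The inhibitors called as higher were thus 0, 1 and 1 in those settings, against 2, and none was called as lower in any. Over all genes those settings called 175, 249 and 235 as higher, against 607, and 119, 299 and 190 as lower, against 750. In the 11 pathway lists together they called 2, 5 and 3 as higher, against 14, and 6, 15 and 8 as lower, against 24. In single lists 35 counts moved by more than 1.5 times and 97 did not. Many of those that did not move were 0 from the start, which a stricter setting cannot lower, so they show no stability. Centring moved all changes by only 0.0036 on the log2 scale. For Cdkn1c the ratio of recovered reads was -0.19, beside -0.17 as deposited, an alternative chosen after the data were seen. With 2 libraries per genotype and an implied SE of 0.27, a change of Cdkn1c as large as that of Cdkn1a was not detectable.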

Other observations

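The annotation that the authors give with their table assigns CDK inhibitor activity to 12 genes, the 7 described above and 5 more. None of the further genes passed the authors' DESeq2 threshold, which 7.78% of all genes passed. They include Hexim1, an inhibitor of the elongation kinase P-TEFb, at 1073 in wild type and 1140.5 in knockout, and Kat2b, an acetyltransferase, at 322.2 and 258.7 (unadjusted p 0.0426) in the authors' deposited table.

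The same annotation assigns cellular senescence to 16 genes, of which 2 rose and 4 fell. Cdkn1a and Pml, which builds nuclear bodies that recruit p53, were higher in the authors' deposited table (log2 fold change 0.14 for Cdkn1a and 0.26 for Pml). Tbx3 (-0.47), 1500015O10Rik (-0.62), Map2k1 (-0.20) and Calr (-0.11) were lower. The called genes came to 37.5% of this short list, beside 7.78% of all genes. A second term of the annotation, for replicative senescence, held 8 genes, of which Cdkn1a was the 1 called (12.5%). Terms and genes were chosen after the data were seen.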
